A study of Mus musculus with 26 samples.

Results

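The clusters of transcripts uc009ngp.1 and uc009ngq.1 carry adjacent numbers in the mouse liver tables, and in hnRNPK immunoprecipitates (IP) set against total RNA they stood on opposite sides. They were selected on exactly these measured values, the IP levels against the total RNA levels, so those levels are given below as a description with no test. All transcripts that share a cluster number with either were taken, whatever their values, which gave 2 of 31469 clusters and 3 of 59121 transcripts. The uc009ngp.1 cluster, number 27942, holds a single transcript of 2931 nucleotides. The uc009ngq.1 cluster, number 27941, holds uc009ngq.1 of 2757 nucleotides and uc009ngo.1 of 2912 nucleotides. The identifiers carry no gene names in the tables used here, so no function or sequence is given for either cluster, and neither the transcript of hnRNPK nor liver cell markers were analysed.

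The study sequenced RNA bound by hnRNPK in liver, to ask how far this protein takes part in processing mRNA. There were 3 mouse groups: ob/ob (strain B6.V-Lepob/J, which lacks leptin and becomes obese, normal diet), high-fat (C57BL/6J, high-fat diet) and wild type (C57BL/6J, normal diet). For each group the series holds 2 cytoplasmic IP, 2 nuclear IP and 4 total RNA libraries, and 1 control IgG library per compartment came from mixed mice, which makes 26 in all. The labels give no age and do not state if replicates came from different animals. The p-values below therefore reflect the spread among these samples, part of which may be technical.

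hnRNPK is an RNA-binding protein with KH domains that prefers C-rich RNA. It shuttles between nucleus and cytoplasm and is known for roles in transcription, splicing and translation. An RNA immunoprecipitate is read against total RNA to see which transcripts the antibody brought down, and against IgG to see what the beads hold without it. Total RNA here is not the input of the extracts, so a difference from it includes the fractionation. The counts are estimates by RSEM, a program that divides reads fitting several transcripts among them in proportion to its estimate of each transcript's abundance. A count for a cluster whose sequence overlaps or resembles that of another cluster, or is antisense to it, is therefore uncertain. An estimate of this kind need not be a whole number, whereas a count of reads that all belong to 1 cluster is.

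Cytoplasmic IP libraries summed to between 8834063 and 12068891 counts, nuclear IP libraries to between 5336060 and 10581089 and total RNA libraries to between 25597307 and 41731910. Cytoplasmic IgG was shallow at 338469 counts, and nuclear IgG had 3116786. Counts of the 2 total RNA libraries that carry the same replicate number in a mouse group were added and treated as 1 unit, which leaves 18 units, 2 in each mouse group and fraction. Levels are CPM, counts scaled to a common library size, here with TMM, a factor per library that evens out differences in composition.

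In nuclear IP all counts of the pair were given to the uc009ngq.1 cluster, and in total RNA nearly all were given to uc009ngp.1. Cytoplasmic IP lay between, with most counts in the uc009ngq.1 cluster and 0% to 41.3% in uc009ngp.1. The sum of both clusters varied far less than either, between 27.2 and 63.6 CPM over the 18 units, a range of 2.34-fold.

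uc009ngp.1 had 0 counts in all 6 nuclear IP libraries, whichever the mouse group. In cytoplasmic IP it had 0 and 98.80 counts in ob/ob livers, 0 and 32.92 in high-fat livers, and 147.81 and 82.57 in wild-type livers. In total RNA it had 2496.33 and 3095.97 counts in ob/ob livers, 3297.37 and 3413.71 in high-fat livers, and 2954.53 and 2919.63 in wild-type livers. Depth differed between these libraries, and the CPM scale takes account of it. The level of uc009ngp.1 was 0 and 10.6 CPM in ob/ob, 0 and 5.31 CPM in high-fat, and 17.6 and 10.7 CPM in wild-type cytoplasmic IP. In total RNA the level was 32.4 and 32.1 CPM in ob/ob, 35.1 and 35.8 CPM in high-fat, and 32.9 and 33.7 CPM in wild-type livers. The fractions did not overlap: the highest cytoplasmic IP unit lay below the lowest total RNA unit, and every nuclear IP unit lay at 0.

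The means of uc009ngp.1 were 7.37 ± 6.92 CPM in cytoplasmic IP, 0 CPM in nuclear IP and 33.7 ± 1.49 CPM in total RNA (SD, n = 6 each). The ratio of cytoplasmic IP to total RNA was 0.219 ± 0.206 (SD of the 6 IP units over the mean of total RNA), and it was 0.145 by library size and 0.124 by TPM. By library size, and against a floor of 3 counts over all 6 libraries, uc009ngp.1 was at least 606-fold lower in nuclear IP than in total RNA. This bound was not computed with TMM and depends on the scaling. The mean level in total RNA was 41.1 CPM by library size and 33.7 CPM with TMM. The same bound, also by library size only, was at least 172-fold lower in ob/ob, 181-fold lower in high-fat and 246-fold lower in wild-type livers. There the floor was taken over each group. Floors and intervals cover counting error only.

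The uc009ngq.1 cluster ran the other way. In cytoplasmic IP it had 696.02 and 396.20 counts in ob/ob, 395.00 and 261.08 in high-fat, and 210.19 and 191.43 in wild-type livers. In nuclear IP it had 208 and 298 counts in ob/ob, 211 and 94 in high-fat, and 381.95 and 227 in wild-type livers. In total RNA, from libraries several times deeper, it had 6.67 and 21.04 counts in ob/ob, 43.13 and 35.26 in high-fat, and 26.52 and 17.37 in wild-type livers. Every IP unit held more counts of this cluster than any total RNA unit. As levels, cytoplasmic IP had 63.6 and 42.3 CPM in ob/ob, 49.8 and 42.1 CPM in high-fat, and 25.1 and 24.8 CPM in wild-type livers. Nuclear IP had 37.7 and 39.2 CPM in ob/ob, 35.4 and 29.1 CPM in high-fat, and 34.3 and 27.2 CPM in wild-type livers. Total RNA had 0.0866 and 0.218 CPM in ob/ob, 0.459 and 0.369 CPM in high-fat, and 0.295 and 0.201 CPM in wild-type livers. Both wild-type units lay below all others in cytoplasmic IP, both ob/ob units lay above all others in nuclear IP, and both high-fat units lay above all others in total RNA.

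The means of the uc009ngq.1 cluster were 41.3 ± 14.9 CPM in cytoplasmic IP, 33.8 ± 4.76 CPM in nuclear IP and 0.271 ± 0.132 CPM in total RNA (SD, n = 6 each). The ratio to total RNA was 152 ± 54.8 for cytoplasmic IP and 124.6 ± 17.5 for nuclear IP, and nuclear over cytoplasmic IP was 0.819 ± 0.115. Those errors cover the IP units only. Taken within each mouse group, the ratio for cytoplasmic IP was 347 in ob/ob, 111 in high-fat and 101 in wild-type livers, and for nuclear IP it was 252 in ob/ob, 77.9 in high-fat and 124 in wild-type livers. These large ratios rest on 149.99 counts of the cluster summed over all total RNA libraries. Those of ob/ob livers rest on 6.67 and 21.04 counts. The mean total RNA level was 0.152 CPM in ob/ob, 0.414 CPM in high-fat and 0.248 CPM in wild-type livers. For scale, edgeR's quasi-likelihood test at an adjusted p of 0.05 called 77.2% of 13516 clusters between cytoplasmic IP and total RNA. It called 74.7% between nuclear IP and total RNA, and 64.6% between nuclear and cytoplasmic IP. Nothing is read from these shares for the pair, which was selected on these contrasts.

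**Figure D1:**
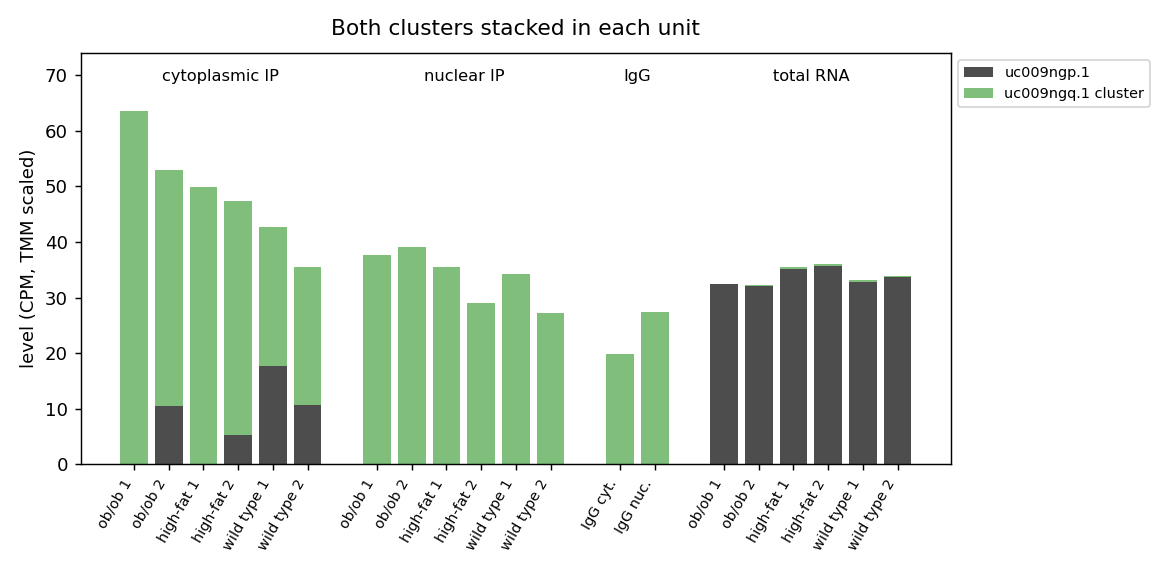
Level of each cluster in each unit and IgG library, in CPM scaled by TMM, with uc009ngp.1 (dark) and the uc009ngq.1 cluster (green) stacked so that the bar's height is their sum. Total RNA bars are almost wholly uc009ngp.1, nuclear IP and IgG bars are wholly the uc009ngq.1 cluster, and the bars' heights run from 19.8 CPM in cytoplasmic IgG to 63.6 CPM in the first ob/ob cytoplasmic IP unit.

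The share of the summed counts given to uc009ngp.1 shows the same order without any scaling between libraries. In total RNA it was 98.7% to 99.7% in every unit. In nuclear IP it was 0% in every unit, which allows a share of up to 3.19% in the shallowest (3 of 94 counts) and 0.785% in the deepest (3 of 381.95 counts). In cytoplasmic IP it was 0% and 20.0% (95% Wilson interval 16.7 to 23.7) in ob/ob, 0% and 11.2% (8.10 to 15.3) in high-fat, and 41.3% (36.4 to 46.5) and 30.1% (25.2 to 36.0) in wild-type livers. The intervals of replicates did not overlap in any of the 3 groups. In the units at 0, 0 of 696.02 counts in ob/ob and 0 of 395 counts in high-fat livers allow shares of up to 0.431% and 0.759%. Both wild-type units lay above all ob/ob and high-fat units. Replicates of the same tissue and antibody thus differed by up to 20.0 percentage points in how the counts were placed, while their summed levels were 63.6 and 52.9 CPM in ob/ob, and 49.8 and 47.4 CPM in high-fat livers.

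**Figure D2:**
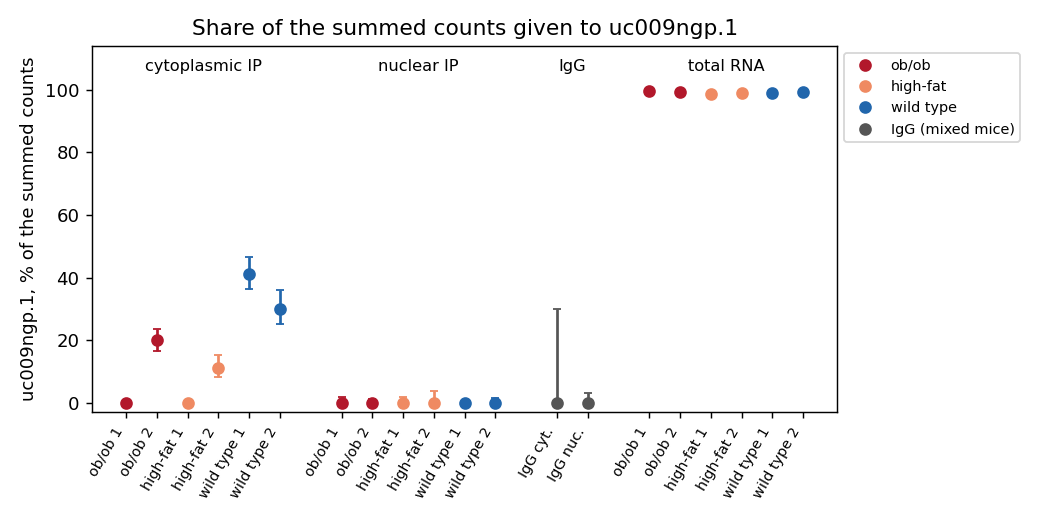
Share of the summed counts of both clusters given to uc009ngp.1, in percent, for each unit and IgG library, with 95% Wilson intervals that cover counting error only. Total RNA sits at 98.7% to 99.7%, nuclear IP and IgG at 0%, and cytoplasmic IP is spread between 0% and 41.3%.

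Per length, as the authors' deposited TPM, the order of the clusters turned round between fractions. In cytoplasmic IP the uc009ngq.1 cluster had 9.99 to 29.6 TPM and uc009ngp.1 0 to 8.19 TPM, and the cluster of uc009ngq.1 was higher in 6 of 6 units. In nuclear IP the uc009ngq.1 cluster had 10.6 to 24.4 TPM and uc009ngp.1 0 TPM. In total RNA uc009ngp.1 had 21.2 to 26.4 TPM and the uc009ngq.1 cluster 0.05 to 0.36 TPM.

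uc009ngo.1, the other transcript of the uc009ngq.1 cluster, carried little of it in IP. It was at 0 in 15 of the 26 libraries. It took at most 26.6% of the cluster's counts in an IP unit, in the first ob/ob nuclear IP unit with 55.36 of 208 counts, and 0% to 19.6% in the other 11. In total RNA, where the whole cluster had few counts, its share ran from 0% to 100% of 6.67 to 43.13 counts.

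The sum of both clusters was 63.6 and 52.9 CPM in ob/ob, 49.8 and 47.4 CPM in high-fat, and 42.7 and 35.5 CPM in wild-type cytoplasmic IP. In nuclear IP it equalled the uc009ngq.1 cluster. In total RNA it was 32.5 and 32.3 CPM in ob/ob, 35.6 and 36.1 CPM in high-fat, and 33.2 and 33.9 CPM in wild-type livers. The means were 48.6 ± 9.50 CPM in cytoplasmic IP, 33.8 ± 4.76 CPM in nuclear IP and 33.9 ± 1.59 CPM in total RNA (SD, n = 6 each). Nuclear IP and total RNA differed by less than the spread between units, and 5 of 6 cytoplasmic IP units lay above every nuclear IP and 5 of 6 above every total RNA unit. The ratio of the sum to total RNA was 1.43 ± 0.280 for cytoplasmic IP and 0.997 ± 0.140 for nuclear IP, and nuclear over cytoplasmic IP was 0.695 ± 0.0978. With library size in place of TMM these ratios to total RNA were 0.976 for cytoplasmic IP and 0.763 for nuclear IP, so the direction for cytoplasmic IP depends on the scaling.

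How stable the sum was is shown by its standard deviation of log2(CPM + 1) over the 18 units. It was 2.38 for uc009ngp.1 and 2.39 for the uc009ngq.1 cluster, at percentile 99.7 of the 12007 clusters whose mean log2 CPM reached 1. It was 0.306 for the sum, at percentile 7.39. The median of all these clusters was 0.611, and 5% of them lay under 0.282. Within fractions the sum's standard deviation was 0.279 in cytoplasmic IP, 0.204 in nuclear IP and 0.0653 in total RNA, against 1.87, 0 and 0.0615 for uc009ngp.1. The sum was thus among the steadier features of the table across fractions, while its parts were among the least steady. The parts were chosen for standing on opposite sides of this contrast, which also bears on their sum. The places of the parts and of the sum are thus descriptions. The clusters ranked were not matched to the sum for level.

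**Figure D3:**
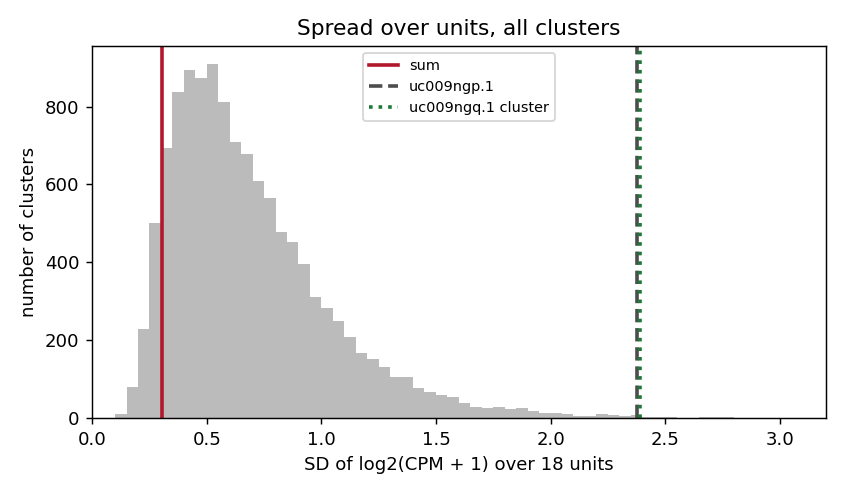
Histogram of the standard deviation of log2(CPM + 1) over the 18 units for the 12007 clusters whose mean log2 CPM reached 1. Vertical lines mark uc009ngp.1 at 2.38, the uc009ngq.1 cluster at 2.39 and their sum at 0.306, which lies left of the bulk of clusters.

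The decimals of the estimated counts were also examined, since they arise where RSEM divides reads. Of the 26 libraries, 15 had both clusters above 0, and in 14 of these neither count was whole within 0.02 of a count. In 11 of these 14 the sum was whole, and in 13 of 14 within 0.05. In the second ob/ob cytoplasmic IP library 98.80 and 396.20 counts added to 495. In the first wild-type cytoplasmic IP library 147.81 and 210.19 added to 358. In the second wild-type cytoplasmic IP library 82.57 and 191.43 added to 274. In the second high-fat cytoplasmic IP library 32.92 and 261.08 added to 294. In total RNA a wild-type library with 1434.50 and 5.50 counts added to 1440, and an ob/ob library with 1492.33 and 6.67 added to 1499. The sum was also whole in 10 libraries where 1 of the clusters was at 0, and there it is only the count of the other.

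Whole sums also occur between other clusters with adjacent numbers. Among such pairs with both counts not whole, 228 to 2147 per library, the sum was whole in 20.9% to 78.5% depending on the library, with a median of 34.7%. The highest value was that of cytoplasmic IgG. In the 14 libraries where neither count of the present pair was whole, this share ran from 20.9% to 44.7%. Of single clusters with at least 10 counts, 61.0% to 90.9% per library were whole. uc009ngp.1 was at 0 in 10 libraries, all of them IP or IgG. The uc009ngq.1 cluster was at 0 in 1 library, of ob/ob total RNA, where uc009ngp.1 had 1004 counts.

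A move of this size between neighbours was rare in the table. Of 12959 pairs with adjacent numbers and a summed level of at least 5 CPM in every fraction, 11 (0.085%) differed by 90 percentage points or more between nuclear IP and total RNA in the share of their sum held by each cluster. A difference of 50 points was reached by 266 (2.05%), and the median was 1.63 points. The pair described here differed by 99.2 points, and no pair differed by more. This count was made after the values were seen, and the pair had been chosen for the difference. Whether any of the 11 pairs share sequence was not tested.

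The 4 clusters numbered directly around the pair all had lower means in both IP fractions than in total RNA. uc009ngl.1 had means of 5.00 CPM in cytoplasmic IP, 4.44 CPM in nuclear IP and 5.41 CPM in total RNA. uc009ngr.2, next above the pair, had 13.6, 7.85 and 14.05 CPM in the same fractions. uc009ngt.1 had 1.73, 2.34 and 3.88 CPM. Their ratios of IP to total RNA ran from 0.447 to 0.970. uc009ngn.2, next below the pair, was near the limit of detection, at 0 in 11 of 18 units and 0.258 CPM in total RNA. With all 4 neighbours added to the sum the standard deviation of log2(CPM + 1) was 0.264, against 0.306 for the pair alone. By library size the order turned, with 0.405 against 0.371.

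**Figure D4:**
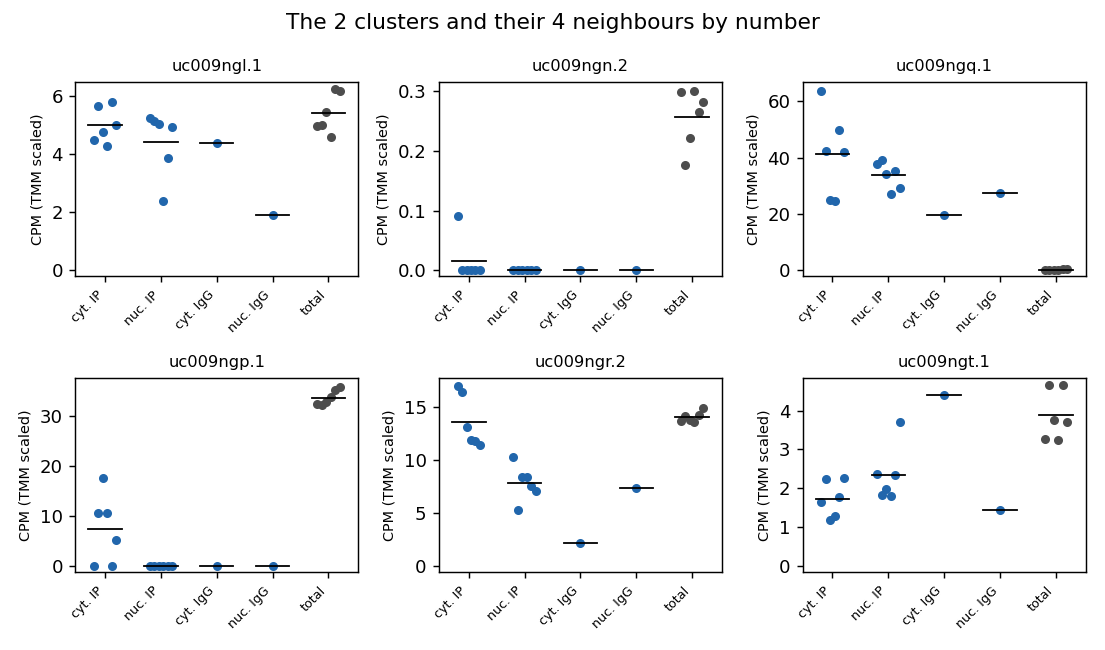
Level in CPM scaled by TMM of the pair and of the 4 clusters numbered beside it, in order of cluster number, with 1 point per unit or IgG library and a line at the mean of each fraction. Only in the panels of uc009ngq.1 and uc009ngp.1, among these 6, is one of the IP and total RNA fractions near 0 while the other lies above 24 CPM.

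The IgG libraries, made without the hnRNPK antibody, placed the counts as nuclear IP did. Cytoplasmic IgG had 9 counts of the uc009ngq.1 cluster and 0 of uc009ngp.1, a share of 0% that allows up to 33.3%. Nuclear IgG had 115 counts and 0, which allows up to 2.61%. These are 19.8 CPM (exact Poisson interval 9.04 to 37.5) in cytoplasmic IgG and 27.4 CPM (22.6 to 32.9) in nuclear IgG. With TMM the uc009ngq.1 cluster averaged 2.09-fold of IgG in cytoplasmic IP and 1.23-fold of IgG in nuclear IP. By library size its mean was 34.4 CPM in cytoplasmic IP against 26.6 CPM in cytoplasmic IgG. For the nucleus it was 31.6 CPM in IP against 36.9 CPM in IgG. By TPM the values were 17.8 against 15.2 for the cytoplasm and 18.9 against 23.2 for the nucleus. Nuclear IP thus averaged above nuclear IgG with TMM but below it by library size and by TPM. On the TMM scale all 6 cytoplasmic IP units lay above the cytoplasmic IgG value, 4 of them above its interval. On that scale 5 of 6 nuclear IP units lay above the nuclear IgG value, 4 above its interval. By library size the ob/ob nuclear IP units, at 37.7 and 41.3 CPM, lay above nuclear IgG at 36.9 CPM. The high-fat units, at 17.6 and 31.1 CPM, and the wild-type units, at 25.7 and 36.1 CPM, lay below it. Cytoplasmic IP also overlapped its IgG off the TMM scale. By library size its lowest unit was 60.5-fold of mean total RNA, against 79.3-fold for cytoplasmic IgG. By TPM the wild-type units, at 12.4 and 9.99, and the second high-fat unit, at 14.5, lay below cytoplasmic IgG at 15.2. The ob/ob units, at 29.6 and 17.9, and the first high-fat unit, at 22.2, lay above it. With 1 IgG library per compartment there is no replicate and no test. The uc009ngq.1 cluster was thus 72.8-fold and 101-fold of its total RNA level in the IgG libraries too, of cytoplasm and nucleus in that order.

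Whether diet or leptin deficiency moved either cluster was tested across all clusters, since the choice of the pair did not use the mouse groups. Bulk libraries cannot tell apart fewer cells of a type and less RNA per cell. In total RNA the log2 fold change of uc009ngp.1 was 0.00 ± 0.07 in ob/ob against wild-type livers (SE, n = 2 units each; adjusted p = 0.974, edgeR), where 1.58% of 15487 clusters were called. It was 0.12 ± 0.07 in high-fat against wild-type livers (adjusted p = 0.610, edgeR), where 0.0% were called. No cluster passed there, although 1527 had an unadjusted p under 0.05 and DESeq2 called 320. It was -0.12 ± 0.07 in ob/ob against high-fat livers (adjusted p = 0.400, edgeR), where 0.491% were called. None of these differences passed.

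The uc009ngq.1 cluster has few counts in total RNA and wider errors. Its log2 fold change was -0.61 ± 0.53 in ob/ob against wild-type livers (adjusted p = 0.497, edgeR). It was 0.75 ± 0.49 in high-fat against wild-type livers (adjusted p = 0.635, edgeR) and -1.36 ± 0.51 in ob/ob against high-fat livers (adjusted p = 0.201, edgeR). Units did not overlap between ob/ob livers, at 0.0866 and 0.218 CPM, and high-fat livers, at 0.459 and 0.369 CPM. Single units decided the size of these values. Against wild-type livers the ob/ob value was -0.14 without the first and -1.42 without the second ob/ob unit, and -0.23 without the first wild-type unit. Against high-fat livers it was -0.88 and -2.17 without the first and the second ob/ob unit. The high-fat value was 1.13 and 0.45 without the first and the second wild-type unit. The sum was close to uc009ngp.1, with 0.00 ± 0.07, 0.13 ± 0.07 and -0.13 ± 0.07 in the same order and adjusted p of 0.993, 0.594 and 0.365 by edgeR.

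The change of IP relative to total RNA was compared between mouse groups in the fit of all 18 units. For cytoplasmic IP of ob/ob against wild-type livers, 0.0074% of 13516 clusters were called. There the log2 difference was 1.63 ± 0.46 for the uc009ngq.1 cluster (adjusted p = 0.210, edgeR), -1.50 ± 1.31 for uc009ngp.1 (adjusted p = 0.690, edgeR) and 0.54 ± 0.21 for the sum (adjusted p = 0.330, edgeR). By DESeq2 the difference of the uc009ngq.1 cluster was 1.64 with an adjusted p of 0.0231, so this call depends on the tool. Without the first and the second ob/ob total RNA unit the edgeR value was 1.24 and 2.48. The estimates of the 2 clusters had opposite signs and that of the sum was smaller than either, and none passed with edgeR. The ratio of the sum to total RNA was 1.80 in ob/ob, 1.36 in high-fat and 1.17 in wild-type cytoplasmic IP, and that of uc009ngp.1 was 0.164, 0.0749 and 0.426.

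For cytoplasmic IP of high-fat against wild-type livers, 0.0074% of clusters were called. The log2 difference was 0.12 ± 0.45 for the uc009ngq.1 cluster (adjusted p = 0.963, edgeR), -2.68 ± 1.45 for uc009ngp.1 (adjusted p = 0.591, edgeR) and 0.17 ± 0.21 for the sum (adjusted p = 0.848, edgeR). The sum's value was 0.31 and 0.04 without the first and the second wild-type cytoplasmic IP unit. For uc009ngp.1 both values rest on a single unit above 0 in the ob/ob and in the high-fat group. Without that unit the group has no counts and no fold, and without the unit at 0 the differences were -0.42 in ob/ob and -1.56 in high-fat livers.

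For nuclear IP, 0.0148% of clusters were called for ob/ob against wild-type livers and 0.0296% for high-fat against wild-type livers. The log2 difference of the uc009ngq.1 cluster was 0.89 ± 0.46 in ob/ob (adjusted p = 0.448, edgeR) and -0.67 ± 0.41 in high-fat livers (adjusted p = 0.596, edgeR). The ob/ob value was 0.49 and 1.73 without the first and the second ob/ob total RNA unit. The high-fat value was -0.36 without the second wild-type total RNA unit and -1.19 by library size. The log2 difference of the sum was 0.31 ± 0.21 in ob/ob (adjusted p = 0.584, edgeR) and -0.05 ± 0.22 in high-fat livers (adjusted p = 0.972, edgeR). Without uc009ngo.1 in the sum, an alternative chosen after seeing the data, these were 0.0953 and -0.13. The ob/ob value of the sum was 0.53 and 0.15 without the first and the second wild-type nuclear IP unit. None of the values with a unit left out passed. uc009ngp.1 was at 0 in nuclear IP of all 3 groups and has no fold there. In all, 19 such tests of the clusters and the sum were made, of which 0 passed with edgeR, 3 had an unadjusted p under 0.05, and 1 passed with DESeq2. These comparisons share their wild-type and total RNA units.

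**Figure D5:**
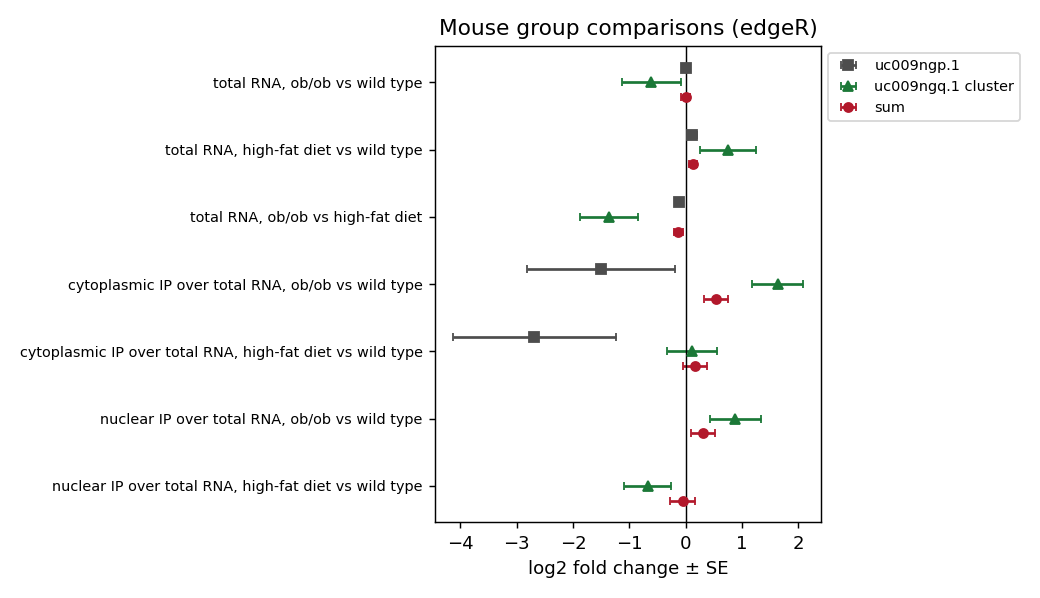
Log2 fold change with its standard error for uc009ngp.1 (squares), the uc009ngq.1 cluster (triangles) and their sum (circles) in the comparisons between mouse groups, from edgeR. The sum lies between -0.13 and 0.54 in every comparison, while uc009ngp.1 reaches -2.68 and the uc009ngq.1 cluster 1.63, and no point passed at an adjusted p of 0.05.

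Over the 18 units, the clusters whose log2(CPM + 1) ran most like that of uc009ngp.1 were uc012bkt.1 and uc007sks.1, each with a Pearson r of 0.939. uc012bkt.1 had 62.2 to 138 CPM in cytoplasmic IP, 21.3 to 30.0 CPM in nuclear IP and 292 to 379 CPM in total RNA, so it was low but not at 0 in nuclear IP. Most like the uc009ngq.1 cluster were uc012fju.1 with an r of 0.996 and uc008txt.2 with an r of 0.994. uc012fju.1 had 1394 to 2557 CPM in cytoplasmic IP, 1605 to 2190 CPM in nuclear IP and 283 to 331 CPM in total RNA. uc008txt.2 had 67.1 to 107 CPM in cytoplasmic IP and 80.1 to 143 CPM in nuclear IP, and was at 0 in every total RNA unit. Most like the sum were uc007qxg.1 with an r of 0.933 and uc009lih.1 with an r of 0.926. These were the highest among 12007 clusters and have no test, because the 18 units share their division into 3 fractions and a cluster that differs between fractions gives a high r.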

How the data were processed

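Liver RNA of 3 mouse groups was measured as total RNA and as RNA from cytoplasmic and nuclear hnRNPK immunoprecipitates, with 1 IgG library per compartment. Libraries were made from 400 ng of RNA, per the labels' protocols. The authors ran RSEM 1.2.8, and its estimated counts (expected counts) and TPM per transcript are what they deposited. The tables also list each transcript's length in nucleotides. The deposited share of each isoform in percent was read but not used. TopHat2 2.0.10, Bowtie2 2.1.0, bcl2fastq and SAMtools are also named, with build mm10, per the submitters' processing notes. Their roles and the strandedness are not given in the sources used here. The IgG libraries' molecule label reads hnRNPK-bound RNA, and their titles, which say IgG, were followed.

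Counts were summed per cluster number, and the 2 total RNA libraries of a replicate number to 1 unit. Pearson's r between them was 0.997 to 0.999, and chi-square per degree of freedom 2.14 to 81.3, so they differed by more than counting noise. Rounded counts were tested in R 4.3.3 with edgeR 4.0.16 (quasi-likelihood, TMM, filterByExpr, limma 3.58.1) and Benjamini-Hochberg adjustment at 0.05, on 6 total RNA units or on all 18 units, over all clusters. A second fit held the pair as 1 feature. Standard errors were taken from F, as the absolute log2 fold change over its square root. Levels are CPM with TMM over 20 units including IgG. Intervals are 95% Wilson or exact Poisson. Alternatives were DESeq2 1.42.0, its size factors, library size, no filter, each library as its own replicate, a replicate block, each unit left out, TPM, other priors and tolerances, and the sum without uc009ngo.1. The steps were tested on simulated data. Both clusters, the neighbours within 2 numbers and the 2 clusters most alike were named by rule. The pair, the lists and the tests were chosen with earlier results of these data known.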

Additional observations from a re-analysis of the deposited data

Results flagged for a closer look

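The control libraries hold the uc009ngq.1 cluster. Cytoplasmic IgG had 9 counts and nuclear IgG had 115 counts of it, above the limit of 3 counts that a count of 0 allows, although these libraries enter none of the tested comparisons. Their levels were 19.8 and 27.4 CPM, in cytoplasmic and nuclear IgG in that order, and uc009ngp.1 was at 0 in both.

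On the TMM scale the sum of both clusters lay on opposite sides of total RNA in nuclear IP of ob/ob and of high-fat livers. In ob/ob livers both nuclear IP units, at 37.7 and 39.2 CPM, lay above both total RNA units, at 32.5 and 32.3 CPM. In high-fat livers both nuclear IP units, at 35.4 and 29.1 CPM, lay below both total RNA units, at 35.6 and 36.1 CPM. The ratio to total RNA was 1.19 in ob/ob and 0.90 in high-fat livers, a difference of 0.40 on the log2 scale that was not tested. Scaled by library size the ratios were 0.974 in ob/ob and 0.537 in high-fat livers, and by the size factors of DESeq2 they were 1.16 and 0.911. Under library size the ob/ob units of nuclear IP, 37.7 to 41.3 CPM, overlapped those of total RNA, 39.0 to 42.1 CPM. With the size factors of DESeq2 the high-fat units of nuclear IP, 29.3 to 35.7 CPM, overlapped those of total RNA, 35.1 to 36.2 CPM. Of these scalings only TMM put all units of both groups on opposite sides.

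Among the 4 total RNA libraries of each mouse group, no library stood apart in uc009ngp.1, in the uc009ngq.1 cluster or in the sum by the size of its gap to the next. The widest such gap was 0.681 of the set's range, and 0 of 9 sets passed Dixon's 95% limit.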

How the results depend on the processing

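The share of the pair's counts in each cluster uses no scaling, whereas ratios between fractions moved with it. For the uc009ngq.1 cluster, cytoplasmic IP over total RNA was 86.6 by TPM, nuclear IP over total RNA 94.2 by library size and 92.2 by TPM, and nuclear over cytoplasmic IP 1.06 by TPM. For uc009ngp.1, cytoplasmic IP over total RNA was 0.145 by library size and 0.124 by TPM. For the sum, it was 0.976 by library size and 0.848 by TPM, nuclear IP over total RNA 0.763 and 0.771, and nuclear over cytoplasmic IP 0.909 by TPM. With 0.1 CPM added in place of 1, the standard deviation of log2 CPM was 4.01 for uc009ngp.1, 3.28 for the uc009ngq.1 cluster and 0.313 for the sum. By library size that of the sum was 0.371. The requirement of 20 CPM, chosen after seeing the data, left 5 adjacent pairs past 90 points and 132 past 50 points.

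Of the log2 fold changes between mouse groups, 102 of the alternatives that kept all units kept direction and call, though not always size, 8 turned the direction and 1 made a call. The call was the uc009ngq.1 cluster in cytoplasmic IP of ob/ob against wild-type livers by the DESeq2 test, 1.64, with adjusted p from 0.0231 to 0.857 over its alternatives. In total RNA of ob/ob against wild-type livers, uc009ngp.1 turned to -0.0064 with the size factors of DESeq2, -0.0147 with no filter and -0.0063 with the DESeq2 test, and the sum to -0.0100, -0.0182 and -0.0099. In cytoplasmic IP of high-fat against wild-type livers, library size gave -0.0528 for the uc009ngq.1 cluster and -0.0215 for the sum. Leaving out each unit in turn gave -0.0209 to 0.0171 for uc009ngp.1 and -0.0275 to 0.0157 for the sum in total RNA of ob/ob against wild-type livers. It gave -0.1808 to 0.4318 for the uc009ngq.1 cluster in cytoplasmic IP and -0.2378 to 0.167 for the sum in nuclear IP, both of high-fat against wild-type livers. The first turned without the second ob/ob or the second wild-type total RNA unit, and the sum there also without either high-fat unit. The uc009ngq.1 cluster turned without the first wild-type total RNA unit or, at -0.0088, the first high-fat cytoplasmic IP unit. The sum in nuclear IP turned without the first wild-type nuclear IP, the second high-fat nuclear IP (0.105) or the second high-fat total RNA unit (0.0048). Of high-fat against wild-type livers, library size gave 0.235 for uc009ngp.1 and 0.241 for the sum in total RNA, and -0.578 for the sum in nuclear IP. The cause of these moves was not tested.

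Replicate numbers were also fitted as a replicate block. Deviations of same-numbered units correlated at 0.391 to 0.420 within ob/ob, 0.470 to 0.539 within wild-type and -0.148 to 0.201 within high-fat livers. Between mouse groups the correlations ran from -0.326 to 0.229. Same-numbered units of ob/ob and of wild-type livers thus deviated together, beyond that range, and those of high-fat livers did not. The labels state no pairing, and the main fit used none. With the block the uc009ngq.1 cluster had 1.60 in cytoplasmic IP of ob/ob against wild-type livers (adjusted p = 0.103, edgeR), and no call on the pair or the sum changed. In total RNA, with the block across mouse groups, 63 clusters were called for ob/ob against wild-type livers, and 244 without it. Over all alternatives this number ran from 0 to 5777. It ran from 0 to 2001 for high-fat against wild-type and from 0 to 4885 for ob/ob against high-fat livers, with the highest value where each library was its own replicate. For cytoplasmic IP relative to total RNA it ran from 1 to 400 in ob/ob and from 1 to 233 in high-fat livers, and for nuclear IP from 0 to 343 and from 0 to 242. Few counts limit the uc009ngq.1 cluster in total RNA, with 6.67 to 43.13 per unit, and in cytoplasmic IgG, with 9.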

Other observations

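The estimated counts of uc009ngo.1, the second transcript of the uc009ngq.1 cluster, fell on few values. It was at 0 in 15 of 26 libraries, between 6.56 and 6.80 counts in 4 total RNA libraries and between 18.33 and 18.46 counts in 5 of 12 IP libraries. The other 2 libraries had 55.36 counts (ob/ob nuclear IP) and 14.17 counts (high-fat total RNA). The libraries with 18.33 to 18.46 counts differed in the rest of the cluster, which held 677.63 counts of uc009ngq.1 in an ob/ob cytoplasmic IP library and 75.61 counts in a high-fat nuclear IP library.

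The clusters most like the sum also differed between fractions. uc007qxg.1 had 1065 to 3010 CPM in cytoplasmic IP, 491 to 1106 CPM in nuclear IP and 652 to 812 CPM in total RNA. uc009lih.1 had 54.5 to 138 CPM, 21.6 to 47.7 CPM and 26.9 to 38.7 CPM in the same order.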
